A study of Rattus norvegicus with 8 samples.

Results

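Lrrn3 and its relatives among the neuronal leucine-rich repeat proteins were examined in injured dorsal root ganglia (DRG) of rats given the histone deacetylase inhibitor (HDACI) MS-275 or vehicle. The set held 10 genes: Lrrn1, Lrrn2, Lrrn3, Lingo1, Lingo2, Flrt1, Flrt2, Flrt3, Lrrtm1 and Lrrtm2. Lrrn3 was chosen by its measured values on these arrays, which were lower with MS-275. The others were taken as family relatives, with earlier results of these data known. Of the 10 genes, 7 had a probe set annotated with that single gene, out of 14497 such genes on 28826 probe sets. Each of the 7 had 1 probe set. Lrrn2, Lingo1 and Lrrtm1 were not analysed here.

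All tissue was ipsilateral L5 DRG, the ganglion whose spinal nerve had been ligated and transected, taken 14 days after the injury from adult male Wistar rats. In the HDACI group (n = 4) MS-275, a class I HDAC inhibitor, was delivered intrathecally by osmotic pump at 30 nmol per day. In the vehicle group (n = 4) the pump held the same solvent, dimethyl sulfoxide in saline, without the drug. There was no uninjured group, so the values say nothing of the injury itself, and the comparison asks only whether the drug altered expression in the injured ganglion. One Affymetrix Rat Gene 1.0 ST array was used for each rat, and values are log2 RMA signals, so that a difference of 1 is a doubling.

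Leucine-rich repeats are short protein segments that stack into a curved surface for binding other proteins. In neurons many membrane proteins carry them outside the cell, where they act in axon guidance, axon growth and the formation of synapses. The Lrrn proteins are single-pass membrane proteins with leucine-rich repeats, an immunoglobulin-like domain and a fibronectin-like domain, and their partners are not well settled. Lingo1 is a co-receptor with which the Nogo receptor restrains axon growth and myelination, and Lingo2 is its close relative. Flrt proteins bind Unc5 guidance receptors and latrophilins and modulate fibroblast growth factor receptors. Lrrtm proteins sit on the postsynaptic side of excitatory synapses and bind neurexins.

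The stretches upstream of Lrrn3 and Lrrtm2 are shown for members that lay on opposite sides of 0 in the comparison below and whose RefSeq start site is also the outermost start of the gene. The rat gene Lrrn3 spans 64216164 to 64247293 on chromosome 6 (GRCr8, minus strand), and Lrrtm2 spans 27091919 to 27096967 on chromosome 18 (minus strand). The 250 bases before each start site are given 5′ to 3′, at chr6:64247294-64247543 and chr18:27096968-27097217, with E-boxes (CANNTG) and the cyclic AMP response element core (TGACGTCA) in capitals.
Lrrn3: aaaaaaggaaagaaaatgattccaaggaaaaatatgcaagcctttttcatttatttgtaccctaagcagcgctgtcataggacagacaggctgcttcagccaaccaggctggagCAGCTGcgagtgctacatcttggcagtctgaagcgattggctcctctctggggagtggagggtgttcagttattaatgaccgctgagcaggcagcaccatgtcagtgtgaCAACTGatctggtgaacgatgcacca
Lrrtm2: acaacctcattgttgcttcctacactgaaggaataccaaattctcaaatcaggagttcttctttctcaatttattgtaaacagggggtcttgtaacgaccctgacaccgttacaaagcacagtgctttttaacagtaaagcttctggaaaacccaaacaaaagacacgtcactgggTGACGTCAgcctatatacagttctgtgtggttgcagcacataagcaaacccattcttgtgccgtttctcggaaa

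Lrrn3 had 2 E-boxes, 136 and 26 bases before the start, and no response element core. Lrrtm2 had 1 response element core, 74 bases before the start, and no E-box. Of 33465 RefSeq upstream stretches of the same length, 65.5% held an E-box and 1.59% held the core. On both strands, neither of these stretches held the GC box GGGCGG (30.5% of all), the AP-1 site TGANTCA (6.34%), TATAAA (12.9%) or the left RE1 half-site TTCAGCACC (0.305%). The GC content was 48.4% for Lrrn3 and 42.4% for Lrrtm2, against a median of 51.2% over all stretches. A match of letters is a description of the sequence and not a bound site.

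No gene of the set passed adjustment. Over the 28826 probe sets limma gave an adjusted p under 0.05 for 0 (0% called; smallest adjusted p 0.580), although 1022 (3.55%) were under 0.05 and 160 (0.555%) under 0.01 before adjustment, so the values below are differences between these 8 arrays and not calls. At a permissive unadjusted p of 0.01, 0.441% of the 14497 genes were called, 0.304% lower and 0.138% higher. In 2.24% of genes the groups did not overlap, with HDACI lower in 1.2%. Among the 7 members, 4 lay lower and 3 higher, with a median difference of -0.04 (log2, HDACI minus vehicle) against 0.00465 over all genes, of which 46.9% lay lower. Members lower in HDACI were Lrrn3, Lrrn1, Lingo2 and Flrt3, and for the first 3 of these the groups did not overlap.

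Lrrn3 lay lower in every HDACI array than in every vehicle array. It measured 9.29, 9.42, 9.43 and 9.45 in vehicle replicates 1 to 4. In HDACI replicates 1 to 4 it measured 8.69, 9.26, 9.01 and 8.58. The vehicle arrays lay close together, whereas the HDACI arrays spread widely, with replicates 4 and 1 far below the rest and replicate 2 almost level with the lowest vehicle array. The mean was 8.88 ± 0.31 in HDACI and 9.40 ± 0.07 in vehicle (SD, n = 4 each), a difference of -0.51 ± 0.14 (log2, SE) or 1.43-fold. The gene was chosen for this difference, so it is given without a test. The gap between the groups was 0.03.

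The spread of Lrrn3 within the HDACI group was 4.22 times that within the vehicle group, by SD. The corresponding ratio was between 0.784 and 1.37 for the other 6 members. Such uneven spread was not particular to Lrrn3 among the related genes and partners listed below. Lrrc4 had an SD of 0.2400 in HDACI and 0.0562 in vehicle, and Mag also spread more widely in HDACI. Slitrk4 went the other way, with an SD of 0.0507 in HDACI and 0.2214 in vehicle. Because the HDACI arrays were spread for Lrrn3, the size of its difference rested on which of them were counted. It was -0.64 without HDACI replicate 2 and -0.41 without HDACI replicate 4, and it stayed between -0.55 and -0.49 when any vehicle array was left out.

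**Figure D1:**
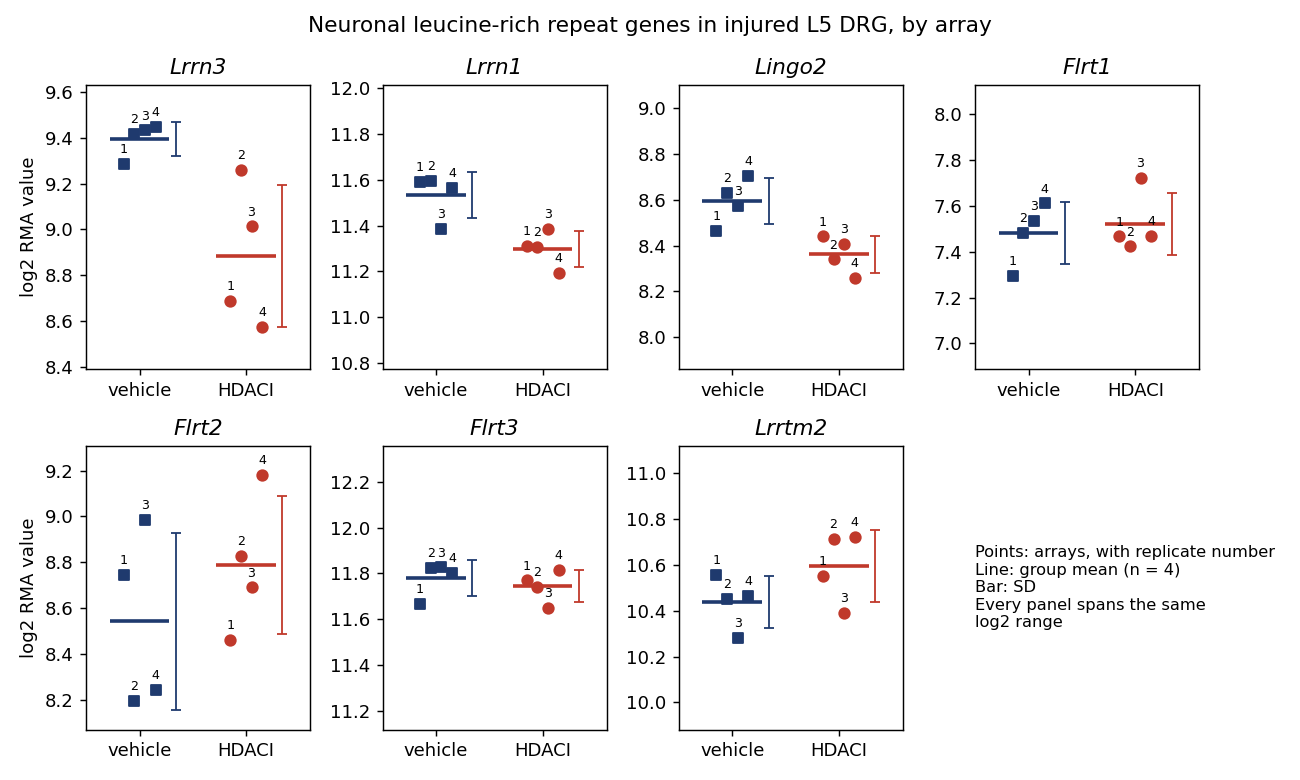
Log2 RMA values of the 7 measured genes on each array, vehicle as dark blue squares and HDACI as red circles, numbered by replicate, with the group mean as a line and the SD as a bar (n = 4 each). The panels span equal log2 ranges. Lrrn3, Lrrn1 and Lingo2 show no overlap between groups, and Lrrn3 shows 4 close vehicle arrays against scattered HDACI arrays.

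Lrrn1, the closest measured relative of Lrrn3, also lay lower with the drug, by a smaller amount. It measured 11.59, 11.60, 11.39 and 11.57 in vehicle replicates 1 to 4. In HDACI replicates 1 to 4 it measured 11.31, 11.31, 11.38 and 11.19. Vehicle replicate 3 stood well below the other vehicle arrays and only 0.0014 above the highest HDACI array, so that the groups barely missed overlapping, and they did overlap after cyclic loess normalization. The difference was -0.24 ± 0.06 (log2, SE; 95% interval -0.38 to -0.09), or 1.18-fold, with an adjusted p of 0.9998 by limma.

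Lingo2 was the third gene whose groups did not overlap. Its value in vehicle replicates 1 to 4 was 8.47, 8.63, 8.57 and 8.70. In HDACI replicates 1 to 4 it was 8.44, 8.34, 8.41 and 8.26. Vehicle replicate 1 lay 0.03 above the highest HDACI array, and vehicle replicate 4 was the highest of all. The difference was -0.23 ± 0.06 (log2, SE; 95% interval -0.38 to -0.09), or 1.17-fold, with an adjusted p of 0.9998 by limma. Thus 2 of the 6 relatives of Lrrn3 were past the unadjusted p of 0.01, both lower, with the background of 0.304% lower genes given above. The relatives were chosen with earlier results of these data known, so the count is a description and not a test. That count was not steady, being 0 to 2 when single arrays were left out and 0 with the muscle score or the neuron score described below as a covariate.

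For all 3 Flrt genes the groups overlapped. Flrt3, which sensory neurons are known to make after nerve injury, hardly varied: it measured 11.67, 11.83, 11.83 and 11.80 in vehicle and 11.77, 11.74, 11.65 and 11.82 in HDACI replicates 1 to 4. The arrays of both groups were interleaved. The difference was -0.04 ± 0.06 (log2, SE), and its 95% interval of -0.16 to 0.09 leaves out changes of the size seen for Lrrn3. Flrt1 measured 7.29, 7.48, 7.53 and 7.61 in vehicle and 7.47, 7.42, 7.72 and 7.47 in HDACI, and the groups overlapped, although vehicle replicate 1 was below all HDACI arrays and HDACI replicate 3 above all vehicle arrays. Its difference was 0.04 ± 0.09 (95% interval -0.16 to 0.24).

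Flrt2 had the widest range of the 7 genes in each group, 0.721 in HDACI and 0.788 in vehicle. It measured 8.74, 8.20, 8.98 and 8.24 in vehicle and 8.46, 8.83, 8.69 and 9.18 in HDACI replicates 1 to 4. Vehicle replicates 2 and 4 were the lowest arrays and HDACI replicate 4 the highest. The difference was 0.25 ± 0.20 (log2, SE; 95% interval -0.22 to 0.71; adjusted p = 0.9998 by limma), ranging from 0.12 to 0.39 when single arrays were left out. Endothelial and fibroblast markers (13 genes, averaged and set relative to all arrays) were likewise lowest in vehicle replicate 2 (-0.20) and highest in HDACI replicate 4 (0.21). The part of these cells in the Flrt2 values was not tested.

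Lrrtm2, the organizer of excitatory synapses, lay on the opposite side from Lrrn3. It measured 10.56, 10.45, 10.28 and 10.47 in vehicle and 10.55, 10.72, 10.39 and 10.72 in HDACI replicates 1 to 4. HDACI replicates 2 and 4 were above all vehicle arrays, while the other HDACI arrays lay within the vehicle range. The difference was 0.16 ± 0.09 (log2, SE; 95% interval -0.04 to 0.36; adjusted p = 0.9998 by limma).

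Binding partners of Lingo, Flrt and Lrrtm proteins were examined next, each with its own value. The list also held genes linked to these proteins through a shared partner, and all listed genes are called partners here. Such were ligands of the Nogo receptor, Ntn1 as the ligand of Dcc and Unc5 receptors, and the neuroligins, which bind neurexins. Of 29 listed partners 27 were measured. None of them passed an unadjusted p of 0.01 or of 0.05, beside a background of 0.441% and 3.35% of genes, and 12 lay lower and 15 higher with a median difference of 0.01 (log2). No partners were listed for Lrrn proteins, and Rtn4r and Omg, themselves leucine-rich repeat proteins, also stand among the other family genes described later.

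The 7 partners around Lingo showed no common direction. The Nogo receptor Rtn4r differed by -0.03 ± 0.10 and its ligand Rtn4, or Nogo, by -0.07 ± 0.05 (log2, SE). The myelin ligands Mag and Omg differed by 0.02 ± 0.13 and -0.04 ± 0.13. Of the co-receptors, the neurotrophin receptor Ngfr differed by 0.02 ± 0.05 and Tnfrsf19, also known as Troy, by 0.15 ± 0.12. Wnk1, a kinase that binds Lingo1 inside the cell, differed by -0.02 ± 0.05. For Ngfr the 95% interval was -0.10 to 0.13, and for Wnk1 it was -0.12 to 0.09.

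Of 13 genes listed for Flrt proteins, as partners or through a shared partner, 10 lay higher and 3 lower. The latrophilins Adgrl1, Adgrl2 and Adgrl3 differed by 0.04, 0.04 and -0.0006, and the last of these had a 95% interval of -0.10 to 0.10. The guidance receptors Unc5a, Unc5b and Unc5c differed by 0.01, 0.11 and -0.05. The fibroblast growth factor receptors Fgfr1, Fgfr2 and Fgfr3 differed by 0.10, 0.06 and 0.10, and the guidance receptors Robo1 and Dcc by -0.01 and 0.10. The teneurin Tenm2 differed by 0.10 ± 0.13. Netrin-1 (Ntn1), the ligand of Dcc and Unc5 receptors, differed most, by 0.30 ± 0.22.

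Ntn1 was uneven within the vehicle group in the same arrays as Flrt2. It measured 10.24, 9.36, 10.20 and 9.38 in vehicle and 9.86, 10.15, 10.04 and 10.34 in HDACI replicates 1 to 4. As for Flrt2, vehicle replicates 2 and 4 were the lowest arrays and HDACI replicate 4 the highest. This likeness was noticed after the values were seen.

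Of 7 genes listed for Lrrtm proteins, as partners or through a shared partner, 5 lay lower. The presynaptic neurexins Nrxn2 and Nrxn3 differed by 0.04 ± 0.06 and -0.12 ± 0.07 (log2, SE). The neuroligins Nlgn1, Nlgn2 and Nlgn3, which also bind neurexins, differed by -0.10, 0.01 and -0.03. The glypican Gpc4 differed by -0.02, and Dlg4, the postsynaptic scaffold PSD-95, by -0.02 ± 0.05.

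Other leucine-rich repeat proteins of neurons gave smaller differences than Lrrn3. Of 49 listed genes 40 were measured, and 27 lay lower and 13 higher, with a median of -0.03 (log2), and none passed an unadjusted p of 0.01. One gene passed an unadjusted p of 0.05, beside 3.35% of all genes. It was Lingo3, at 7.94, 7.93, 7.95 and 7.90 in HDACI against 7.68, 7.76, 7.80 and 7.90 in vehicle, with a difference of 0.14 ± 0.05. Lingo3 therefore lay on the other side of 0 from Lingo2, and Lingo4 differed by 0.06.

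Of the 6 Slitrk genes, whose proteins shape neurites and synapses, 5 lay lower and 1 higher. Slitrk1 and Slitrk5 both differed by -0.19, Slitrk3 and Slitrk2 by -0.14 and Slitrk4 by -0.11, whereas Slitrk6 differed by 0.39 ± 0.19 (log2, SE). Slitrk6 was highest in HDACI replicate 4, at 7.35 against 6.42 to 6.76 in the other HDACI arrays. The 4 Lgi genes, which encode secreted proteins of synapses and myelin, differed by -0.16 to -0.01. The 3 Amigo genes differed by -0.10 to -0.02 and the 3 Nogo receptor genes by -0.06 to -0.02. Other subfamilies did not share this direction. Of the 5 Lrfn genes 1 lay lower, with differences of -0.15 to 0.11. The 2 Lrrtm genes lay on opposite sides of 0 (-0.10 and 0.16), as did the 2 Slit genes (-0.08 and 0.13) and the 2 Lrig genes (-0.04 and 0.003). For all 40 genes the groups overlapped.

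**Figure D2:**
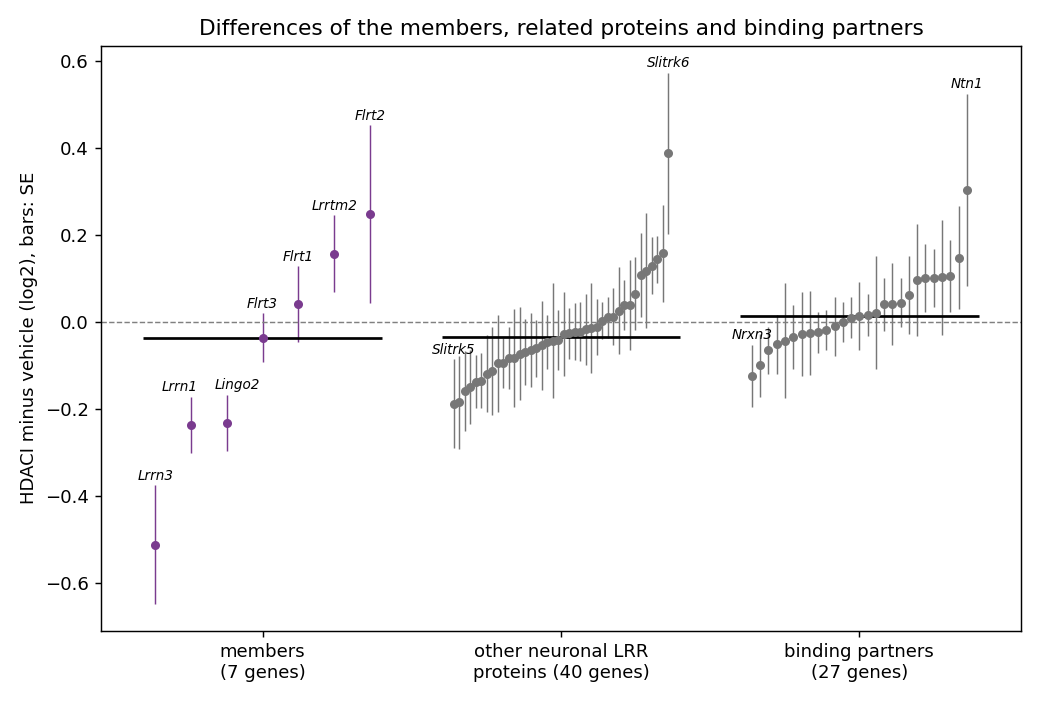
Each point is the difference HDACI minus vehicle of 1 gene (log2, with its SE, n = 4 arrays per group). Genes are ordered within the 7 members, 40 other neuronal leucine-rich repeat proteins and 27 binding partners, direct or through a shared partner. Black lines mark the medians of -0.04, -0.03 and 0.01. Lrrn3 (-0.51), Lrrn1 and Lingo2 lie below every gene of the other lists.

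The arrays also differed in their levels of cell type markers. All 18 measured sensory neuron markers were above the low-value limit of 6.95 in both groups, from Tac1 (mean 8.54) to Stmn2 (13.4), as the labelled tissue calls for, and so were all 8 satellite glia and all 8 myelinating Schwann cell markers. Skeletal muscle markers were present too, and unevenly. The mean of the 20 markers, relative to the mean of all arrays, was 2.26, 1.57, -0.97 and 0.59 in vehicle replicates 1 to 4, but -1.12 to -0.75 in HDACI. All 20 lay lower in HDACI, with a median of -1.76. Vehicle replicate 3 alone among the vehicle arrays was as low in muscle genes as the HDACI arrays.

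Lrrn3 was 9.43 in vehicle replicate 3, the vehicle array lowest in muscle genes, and 9.29 in vehicle replicate 1, the highest in them. HDACI replicate 4 was the lowest of all arrays in both muscle genes (-1.12) and Lrrn3 (8.58). With the muscle score as a covariate the Lrrn3 difference was -0.54 ± 0.20, and without vehicle replicates 1, 2 and 4 together, which left 1 vehicle array, it was -0.55. Lrrn1 was lowest among the vehicle arrays in replicate 3 (11.39), and was 11.59, 11.60 and 11.57 in the others, whose muscle level ran from 2.26 to 0.59. With the muscle score its difference was -0.11 ± 0.07, without vehicle replicates 1 and 2 it was -0.18, and without vehicle replicates 1, 2 and 4 it was -0.09. Lingo2 differed by -0.26, -0.28 and -0.21 in these 3 settings. The part of muscle tissue in the differences of the 3 genes was not tested.

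Neuronal markers lay slightly lower with the drug, as did the 3 genes. Of the 18 sensory neuron markers 16 were lower, with a median of -0.09, and their mean relative to all arrays was -0.15, 0.08, 0.01 and 0.28 in vehicle replicates 1 to 4 and -0.03, -0.03, -0.03 and -0.13 in HDACI. In a piece of whole ganglion, fewer neurons and less RNA per neuron cannot be told apart. Lingo2 was ordered as the mean of these markers was among the vehicle arrays, lowest in replicate 1 and highest in replicate 4. Both were lowest of all HDACI arrays in replicate 4. That mean also served as the neuron score, and most of the 18 markers were highest in another vehicle array than replicate 4. Calca was 11.92 in vehicle replicate 4 against 9.91 to 10.35 in the other vehicle arrays, and Scn10a 10.06 against 8.24 to 8.74. With the neuron score as a covariate Lingo2 differed by -0.17 ± 0.05, Lrrn3 by -0.44 ± 0.15 and Lrrn1 by -0.22 ± 0.07. All 3 differences were nearer 0 than without the score, and the part of neuron content in them was not tested.

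The medians of the remaining marker lists lay between -0.08 and 0.12. Of the 14 markers of injured neurons 12 lay lower (median -0.08), and of the 8 markers of myelinating Schwann cells 7 lay lower (median -0.03). Satellite glia (5 of 8 higher, median 0.01), macrophages (10 of 10, median 0.09), T cells (8 of 11, median 0.03) and endothelial cells and fibroblasts (11 of 13, median 0.12) lay on the higher side. For each of these lists the array means overlapped between groups. The macrophage mean, relative to all arrays, was -0.17, -0.14, 0.05 and 0.49 in HDACI replicates 1 to 4, against -0.15 to 0.09 in vehicle. Central nervous system glia markers lay lower in 6 of 7 (median -0.08), and 3 of the 7, Opalin among them, were under the low-value limit in both groups. For 2 of the 7, beside 1.2% of all genes, the groups did not overlap, with HDACI lower: the glutamate transporter Slc1a2 differed by -0.29 ± 0.11 and the water channel Aqp4 by -0.27 ± 0.11 (log2, SE; adjusted p = 0.9998 by limma for both). Both were highest in vehicle replicate 3, at 7.66 and 7.88, and lowest in HDACI replicate 4, at 6.88 and 7.10, and their part in the differences of Lrrn3, Lrrn1 and Lingo2 was not tested. HDACI replicate 4, with the lowest Lrrn3, Lrrn1 and Lingo2 values of all arrays, was also highest in macrophage markers (0.49) and lowest in Schwann cell markers (-0.32), and the part of this in its values was not tested.

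**Figure D3:**
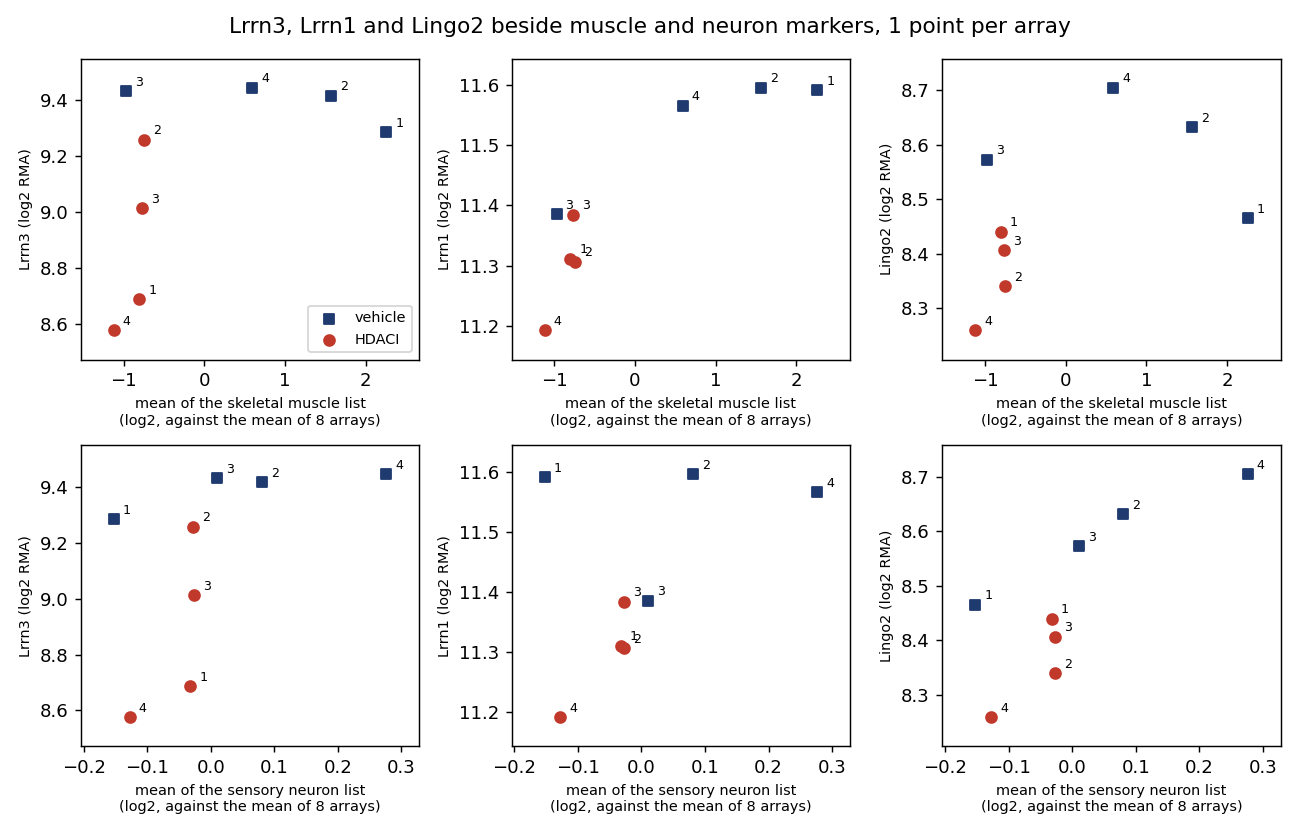
Log2 RMA values of Lrrn3, Lrrn1 and Lingo2 (y axes) against the mean of the skeletal muscle list (upper row) and the sensory neuron list (lower row), each list relative to its mean over all 8 arrays (log2, x axes), with 1 point per array, vehicle as dark blue squares and HDACI as red circles, numbered by replicate. Lrrn1 in vehicle replicate 3 (11.39) lies beside the HDACI arrays that share its low muscle level, whereas Lrrn3 in that array (9.43) lies with the other vehicle arrays.

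The genes closest to Lrrn3 across the 8 arrays were sought among 11543 genes, by the root mean square difference after each gene's own mean was subtracted. Closest were Cth, an enzyme that makes cysteine (0.191), Rgs17, a regulator of G-protein signalling (0.194), Folh1, a glutamate carboxypeptidase (0.196), Prom1, a membrane glycoprotein (0.196), and Thtpa, a thiamine triphosphatase (0.197). Lrrn3 itself varied by 0.322 about its mean, and the median gene lay at 0.332. Even the closest left 35.1% of the variation of Lrrn3 unmatched, so none tracked it tightly. These 5 genes differed between groups by -0.30 to -0.23, with Folh1 at one end and Thtpa at the other.

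Within the family, Slitrk5 ranked 18th, Slitrk1 ranked 40th, Lrrn1 ranked 61st and Lingo2 ranked 71st of the 11543 by the same measure. Because Lrrn3 was chosen for its difference between groups, genes with a lower HDACI mean come early in this order by construction. HDACI replicate 4 was the lowest array for Cth, Folh1 (8.97), Prom1 (7.89) and Thtpa (8.87), as it was for Lrrn3, but for Rgs17 the lowest was HDACI replicate 1 (8.73).

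**Figure D4:**
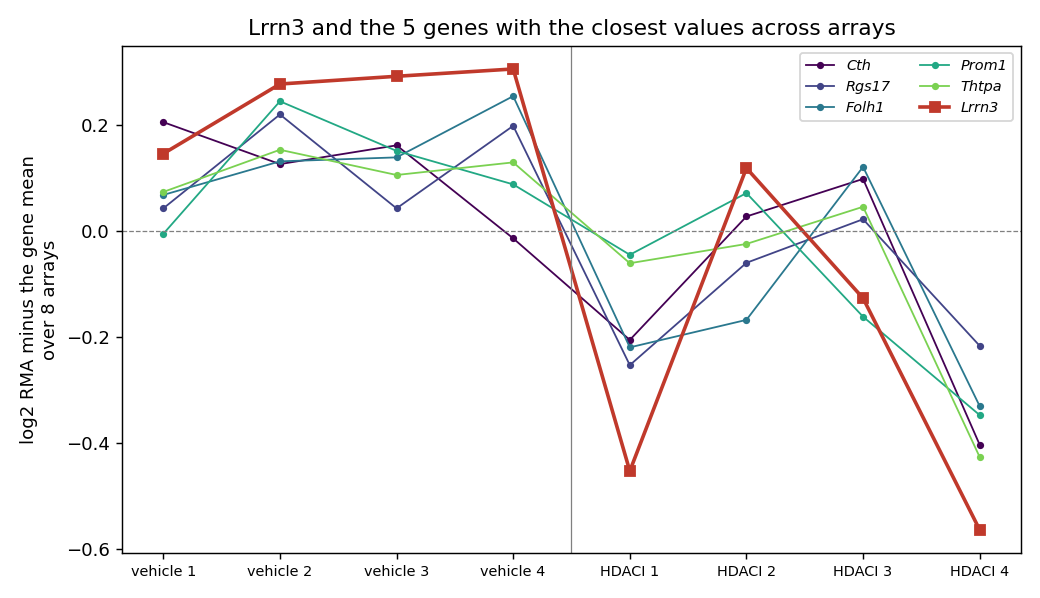
Log2 RMA values minus each gene's mean over the 8 arrays (y axis) for Lrrn3 (thick red line) and the 5 genes with the smallest root mean square difference from it; the order of arrays within a group carries no meaning. HDACI replicate 4 is low for all 6 genes, and Lrrn3 departs furthest from its mean there, by -0.56.

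Across 19 other ways of processing the arrays, the differences of Lrrn3, Lrrn1 and Lingo2 kept their sign in all. With groups that did not overlap, leaving out or weighting arrays could not change that sign. The replicate block, the probe set filter, the intensity trend and the averaging of probe sets left the difference itself unchanged. Only median centring, cyclic loess and the covariate scores could have reversed it. Lrrn3 lay between -0.64 and -0.41. Lrrn1 lay between -0.29 and -0.09, and Lingo2 between -0.28 and -0.17. The adjusted p by limma was at least 0.618 for Lrrn1 and at least 0.701 for Lingo2 in these settings. For Flrt1 the sign changed in 6 of the 19 settings and for Flrt2 in 1, the one that kept only vehicle replicate 3 of its group (-0.19).

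**Figure D5:**
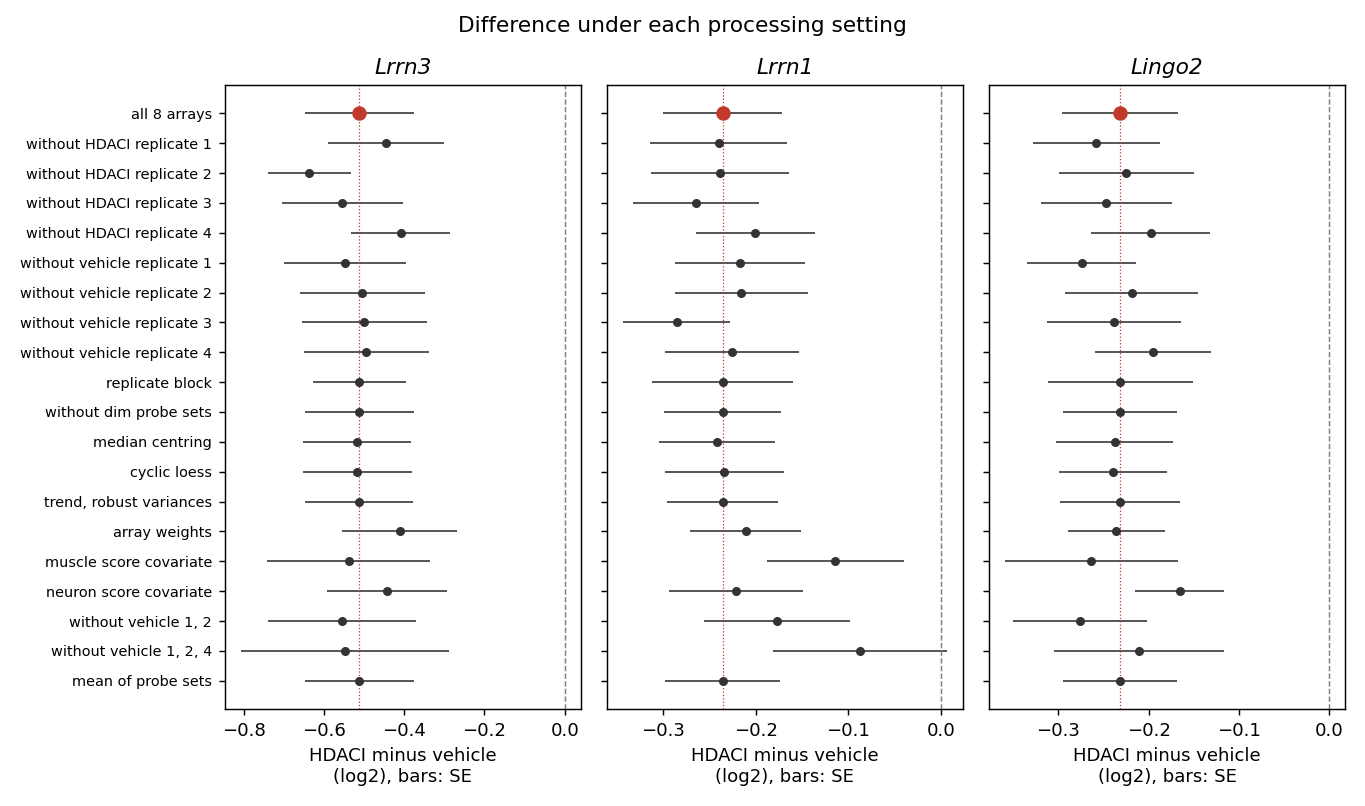
Difference HDACI minus vehicle (log2, x axes, with SE) of Lrrn3, Lrrn1 and Lingo2 with all 8 arrays (red) and in each of the 19 alternative settings (black); 0 is a dashed line, the value with all 8 arrays a dotted line, and the x axes differ between panels. Lrrn3 ranges from -0.64 to -0.41, and Lrrn1 comes closest to 0 when the muscle score is a covariate (-0.11) or when vehicle replicate 3 is the one vehicle array left (-0.09).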

How the data were processed

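The authors hybridized total RNA of single rats to Affymetrix Rat Gene 1.0 ST arrays and preprocessed them with RMA in the Bioconductor package oligo, so the deposited values are log2 signals after background correction, quantile normalization and a summary per probe set. Tool versions are not given in the sources used here. Quantile normalization makes array distributions nearly equal (medians 8.13 to 8.16), so a shift shared by all genes is not visible, and RMA compresses dim signals. Arrays have no read depth, and their number limits the precision.

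Groups and replicate numbers came from the sample titles. Gene names came from the platform annotation, updated through RefSeq (GRCr8): 15209 probe sets carried 1 symbol, 306 several and 13311 none, and 15178 matched a current identifier. Per gene the probe set with the highest mean was used. limma 3.58.1 in R 4.3.3 was fitted over all 28826 probe sets, two-sided, with Benjamini-Hochberg adjustment. The fit was tested on simulated data with independent noise and changes larger than any difference of the members, so smaller changes were not covered. Upstream sequences are from RefSeq (GRCr8), in which 9 of the 10 genes were found.

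The members and lists were chosen with earlier results of these data known. Named were all members, all measured partners, the 4 other leucine-rich repeat genes with the smallest p, and the 5 genes most like Lrrn3; further genes were named after their values were seen. Marker lists covered sensory neurons, injured neurons, satellite glia, myelinating Schwann cells, skeletal muscle, macrophages, T cells, endothelial cells and fibroblasts, and central nervous system glia. Alternatives were each array left out, a replicate block, a filter on probe sets with a mean under the 30th percentile, median centring, cyclic loess, an intensity trend with robust variances, array weights, a muscle or a neuron score as covariate, vehicle replicates 1 and 2 left out, all probe sets of a gene averaged and, added after the data were seen, vehicle replicates 1, 2 and 4 left out.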

Additional observations from a re-analysis of the deposited data

Results flagged for a closer look

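In 3 of the 14 groups of 4 arrays formed by the 7 genes, 1 array stood apart by Dixon's criterion, which chance alone meets in about 1 of 20 groups. For Lrrn1, vehicle replicate 3 lay at 11.39 (11.3858), below the other vehicle arrays at 11.57 to 11.60. For Flrt1, HDACI replicate 3 lay at 7.72 (7.7239), above the other HDACI arrays at 7.42 to 7.47. For Flrt3, vehicle replicate 1 lay at 11.67 (11.6659), below the other vehicle arrays at 11.80 to 11.83. Lrrn3 had no such array in either group. Among the related proteins and partners, 10 of 130 such groups met the criterion.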

How the results depend on the processing

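The Lrrn3 difference kept its direction in all 19 settings. Where arrays were left out or weighted, groups without overlap fixed that direction beforehand. Leaving aside the setting with a lone vehicle array, none of those fitted over probe sets gave an adjusted p under 0.05. The causes of the changes below were not tested. The count of probe sets under an unadjusted p of 0.01 (160) was 102 to 287 when single arrays were left out, lowest without HDACI replicate 2 (102) and vehicle replicate 2 (103), and highest without vehicle replicates 1 (287) and 3 (245). It was 106 without dim probe sets, 372 with array weights and 327 with the neuron score. The count among the 6 genes other than Lrrn3 (2) was 0 to 2 when single arrays were left out, 0 with the muscle score, 0 with the neuron score, 1 without vehicle replicates 1 and 2, and 0 without vehicle replicates 1, 2 and 4. Their median (0.0019) was -0.0484 to 0.0276 with single arrays left out, -0.0357 with array weights, -0.0876 with the muscle score, -0.0617 without vehicle replicates 1 and 2, and -0.0849 without vehicle replicates 1, 2 and 4. The median of all 7 genes (-0.04) was -0.0745 to -0.0210 with single arrays left out, and -0.107, -0.0712 and -0.0872 in those last 3 settings in the same order. Among the other leucine-rich repeat genes the count (0) was 0 to 1 with single arrays left out, being 1 without vehicle replicate 1, 3 or 4, and 1 with the neuron score. The partners' median (0.01) was -0.0205 with the muscle score and -0.0361 without vehicle replicates 1, 2 and 4. That last setting was chosen after the data were seen and leaves a lone vehicle array, assumed to vary like the HDACI arrays.

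Nothing in the sample titles pairs arrays of equal replicate number. The deviations of same-numbered arrays from their group means correlated at -0.041, 0.012, 0.014 and -0.282, which does not exclude a shared day or batch. With the replicate number as a block the Lrrn3 difference was -0.51 with an SE of 0.12, 120 probe sets were under an unadjusted p of 0.01, and 0 of the 6 other genes were. With 4 arrays a group, the 95% intervals of the 7 genes bound what could be seen, and signals near the dim limit are compressed.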
